A study of Homo sapiens with 4 samples.

Results

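The genes described here encode zinc exporters of the SLC30 family, also called ZnT proteins. The family members SLC30A1, SLC30A3, SLC30A4, SLC30A5, SLC30A6, SLC30A7 and SLC30A9 were taken by symbol from a count table of 61541 genes, and all 7 were found. Their RNA was sequenced in MDA-MB-231, an established human breast cancer cell line that is basal-like and mesenchymal in character. The cadmium group was a line passaged in medium with cadmium sulfate that was raised to a final 10 µM, and it was kept at that concentration before RNA was taken. The control group was the parental line, passaged in ordinary medium without cadmium. Each group had 2 libraries. The number of independently selected cadmium lines is not given in the sources used here, so p-values measure the spread between these libraries, which may be technical in part.

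SLC30 proteins move zinc out of the cytosol, either across the plasma membrane or into organelles and vesicles, in exchange for protons. SLC30A1 sits at the cell surface and is a classic target of MTF-1, the transcription factor that senses zinc and binds metal response elements in DNA. SLC30A5 and SLC30A6 work as a pair in the early secretory pathway, and SLC30A7 acts there beside them, loading zinc into enzymes that are secreted or displayed on the cell surface. SLC30A4 and SLC30A3 load vesicles, SLC30A3 being the exporter of synaptic vesicles in zinc-rich neurons, and SLC30A9 is a mitochondrial zinc exporter. Cadmium displaces zinc from proteins, which is how it is thought to engage the zinc-sensing system.

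Total counts ranged from 51934729 to 61916007 reads per library. The control libraries carry the numbers 2 and 3 in the count table and are called control 2 and control 3, and the cadmium libraries are called cadmium 1 and cadmium 2. The controls stood apart from each other, with more than 2-fold differences between them in 23.6% of 19816 tested genes, compared with 6.55% between the cadmium libraries. Several results that rest on 1 control are therefore given with and without it. The mesenchymal and basal markers VIM, CD44, EGFR, AXL, ANXA1 and CAV1 were all abundant, at 111 TPM or more in every library. Among the 6 luminal and epithelial markers, ESR1 and PGR stayed below 0.2 TPM and GATA3 ranged from 10.9 to 21.1 TPM. EPCAM reached 71.9 TPM in control 2 and 21.3 to 25.05 TPM elsewhere, while CDH1 and ERBB3 were higher in control 3 (7.91 and 6.33 TPM) than in control 2 (1.27 and 2.07 TPM). TPM is the count per base of exon, scaled to the same total in each library.

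SLC30A1, the plasma membrane exporter (ENSG00000170385, chromosome 1, 211571568 to 211579161, hg38, minus strand), had the largest difference between the groups among the 7 genes. Its normalized count, the count divided by the library's DESeq2 size factor, was 2174 in control 2, 4616 in control 3, 6566 in the first cadmium library and 7372 in the second. Both cadmium libraries lay above both controls, and the groups did not overlap, but the controls themselves differed 2.12-fold. The mean was 3395 ± 1726 for the controls and 6969 ± 570 for the cadmium libraries (SD, n = 2 each). On the log2 scale the DESeq2 estimate was 1.04 ± 0.40 (SE) with a 95% interval from 0.26 to 1.82, that is 2.05-fold with an interval from 1.20-fold to 3.52-fold. The unadjusted DESeq2 p-value was 0.00908 and the p-value adjusted over all tested genes was 0.339, so SLC30A1 did not pass the threshold of 0.1 and was not called. A gene that was not called is not thereby shown to be unchanged.

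The size of the SLC30A1 difference depended on which control it was set against. The cadmium libraries held 3.02 and 3.39 times the level of control 2, and 1.42 and 1.60 times that of control 3. With control 2 left out the DESeq2 log2 fold change was 0.59 with an adjusted p-value of 2.69e-04, and with control 3 left out it was 1.67 with an adjusted p-value of 8.42e-30. These fits take the single control to vary as little as the cadmium pair does, and under them 14.8% and 31.2% of all tested genes were called. With either cadmium library left out the log2 fold change stayed at 1.11 or 0.95 and the adjusted p-value was 1.00. The sign was the same in each of these fits, while the call was made only when a control was dropped.

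**Figure D1:**
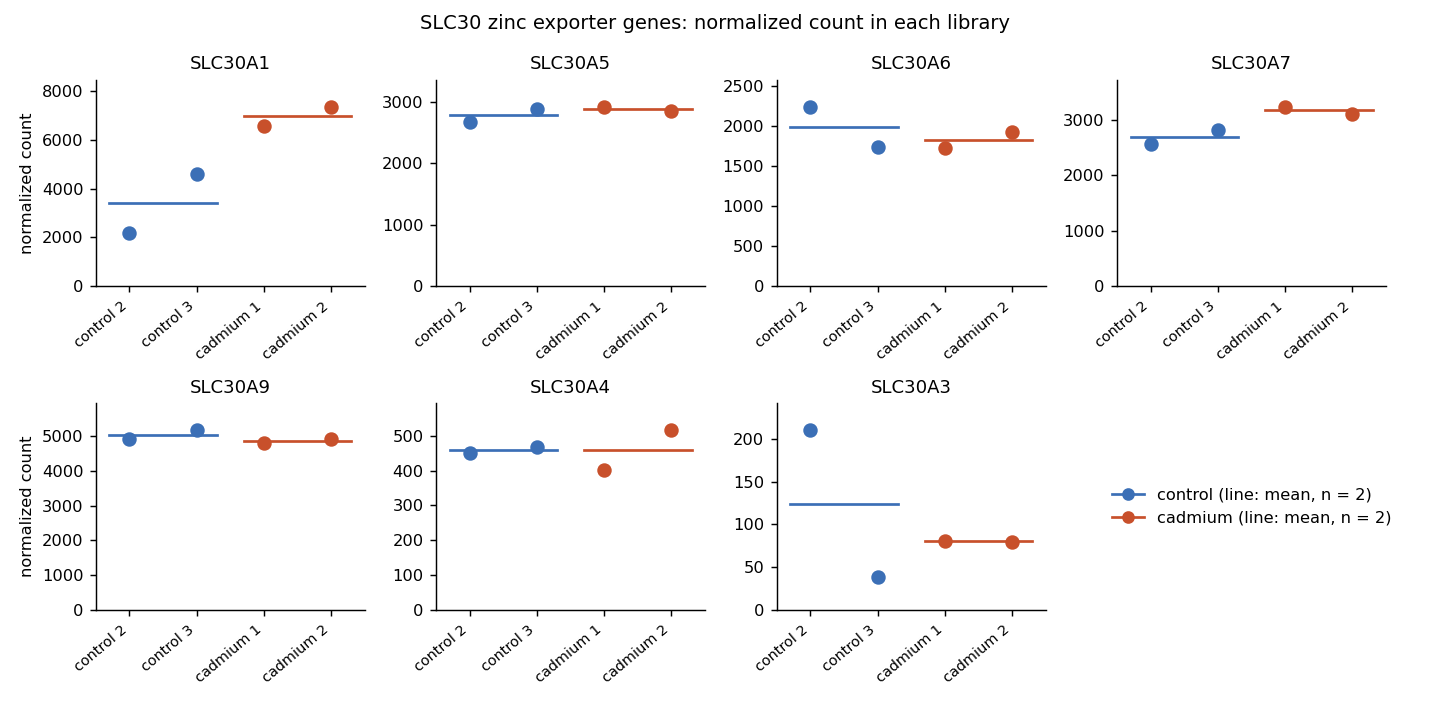
DESeq2 normalized count (vertical axis, starting at 0) of each SLC30 gene in each of the 4 libraries, with one panel per gene and a line at the mean of each group (n = 2). SLC30A1 lay at 2174 and 4616 for the controls and at 6566 and 7372 for the cadmium libraries, SLC30A3 split the controls at 210.1 and 38.3, and the other genes lay close together.

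The start of SLC30A1 holds short sequences of the kind that MTF-1 recognizes, shown because SLC30A1 had the largest fold change of the 7 genes. The core of the metal response element was searched as TGCACNC or TGCGCNC on both strands, in RefSeq windows (GRCh38.p14) from 250 bases before to 50 bases after each annotated start. The 250 bases before the start of SLC30A1 (chr1:211579162-211579411, minus strand) are given 5′ to 3′ on the strand of the gene, with the match in capitals:
SLC30A1 upstream: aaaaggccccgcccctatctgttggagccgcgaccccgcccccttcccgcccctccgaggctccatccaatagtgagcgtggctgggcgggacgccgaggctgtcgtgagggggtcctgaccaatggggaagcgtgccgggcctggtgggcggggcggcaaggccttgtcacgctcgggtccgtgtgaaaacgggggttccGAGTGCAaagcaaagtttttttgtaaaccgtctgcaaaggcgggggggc

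The match begins 49 bases before the start, and a second match begins 24 bases after it, within the first exon. Both read TGCACTC on the strand opposite to the gene. All 7 genes had a window, SLC30A3 had 2, and 5 of the 8 windows held at least 1 match, against 29.6% of all 35116 windows in the table. At least 2 matches were found in 8.6% of all windows. The matches of the family are given below in capitals with their flanks, 5′ to 3′ on the strand of each gene, so that the sites can be compared:
SLC30A1, 49 before the start (chr1:211579204-211579210): ggggttccGAGTGCAaagcaaag
SLC30A1, 24 after the start (chr1:211579131-211579137): accgggccGAGTGCAgctgccgt
SLC30A6, 128 before the start (chr2:32165736-32165742): ccgccacgGAGTGCAgggacagc
SLC30A4, 124 before the start (chr15:45522873-45522879): cccagcccTGCGCGCcaggcctg
SLC30A3, 116 before the first start (chr2:27275456-27275462): ctgcgcttGTGCGCAgcgtcgac
SLC30A3, 20 before the first start (chr2:27275360-27275366): cttatttcGCGCGCAgggaagcg
SLC30A3, 241 before the second start (chr2:27263282-27263288): gcgggactGTGTGCAgaggtggg

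The windows of SLC30A5, SLC30A7 and SLC30A9 held no match to these letters. The matches of SLC30A1 and SLC30A6 share the same 7 letters, GAGTGCA. A match is a description of the letters and was not set against binding data here.

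The secretory pathway exporters differed less, and none of them was called. SLC30A5 (ENSG00000145740, chromosome 5, 69093991 to 69131069, plus strand) had normalized counts of 2676 (control 2), 2888 (control 3), 2926 (cadmium 1) and 2856 (cadmium 2). The groups overlapped and all 4 values lay close together. DESeq2 put the log2 difference at 0.06 ± 0.25 (SE), with a 95% interval from -0.43 to 0.54 and a DESeq2 adjusted p of 1.00. Of the exon bases of SLC30A5, 9.78% are shared with ENSG00000248664, a gene on the other strand that had 16 reads or fewer per library, and a read overlapping both genes was dropped in counting.

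SLC30A6 (ENSG00000152683, chromosome 2, 32165841 to 32224379, plus strand) encodes the partner that SLC30A5 pairs with. Its normalized counts were 2240 (control 2), 1731 (control 3), 1729 (cadmium 1) and 1926 (cadmium 2). Control 2 was the highest library, and the other 3 were lower, with the groups overlapping. On the log2 scale DESeq2 gave -0.12 ± 0.28 (SE), with a 95% interval from -0.68 to 0.44 and a DESeq2 adjusted p of 1.00. Its sign turned without control 2, to 0.076.

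SLC30A7 (ENSG00000162695, chromosome 1, 100896076 to 100981757, plus strand), the third exporter of this route, had normalized counts of 2565 (control 2), 2824 (control 3), 3242 (cadmium 1) and 3111 (cadmium 2). Both cadmium libraries were above both controls, by 1.10-fold to 1.26-fold over the 4 pairings. The fitted log2 difference was 0.24 ± 0.25 (SE), with a 95% interval from -0.25 to 0.73 and a DESeq2 adjusted p of 1.00. The difference was within the replicate error that the fit estimated.

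SLC30A9, the mitochondrial exporter (ENSG00000014824, chromosome 4, 41990502 to 42090461, plus strand), was the most even of the family. Its normalized counts were 4913 (control 2), 5163 (control 3), 4797 (cadmium 1) and 4903 (cadmium 2). Both cadmium libraries lay just below both controls, with cadmium 2 and control 2 almost equal. DESeq2 estimated a log2 difference of -0.05 ± 0.24 (SE), with a 95% interval from -0.53 to 0.42 and a DESeq2 adjusted p of 1.00. Under upper-quartile scaling the value was 0.0048, so no direction can be given for SLC30A9.

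The vesicle exporters were the least abundant. SLC30A4 (ENSG00000104154, chromosome 15, 45479606 to 45522755, minus strand) had normalized counts of 450.4 (control 2), 467.8 (control 3), 402.1 (cadmium 1) and 515.4 (cadmium 2). Cadmium 1 was the lowest and cadmium 2 the highest of the 4, so the groups overlapped. Fitted on the log2 scale, the difference was -0.0012 ± 0.32 (SE), with a 95% interval from -0.62 to 0.62 and a DESeq2 adjusted p of 1.00. Antisense genes share 4.41% of its exon bases.

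SLC30A3 (ENSG00000115194, chromosome 2, 27253684 to 27275817, minus strand) differed most between the controls. It had 222 reads in control 2, 36 in control 3 and 81 in each cadmium library, which are normalized counts of 210.1, 38.3, 80.6 and 79.97. The cadmium libraries matched each other and lay between the controls, which were 5.49-fold apart. The DESeq2 estimate was a log2 difference of -0.63 ± 0.76 (SE), with a 95% interval from -2.12 to 0.86 and a DESeq2 adjusted p of 1.00. It was 1.07 without control 2 and -1.40 without control 3, so the direction was set by the control used. SLC30A3 shares 0.728% of its exon bases with DNAJC5G on the other strand.

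**Figure D2:**
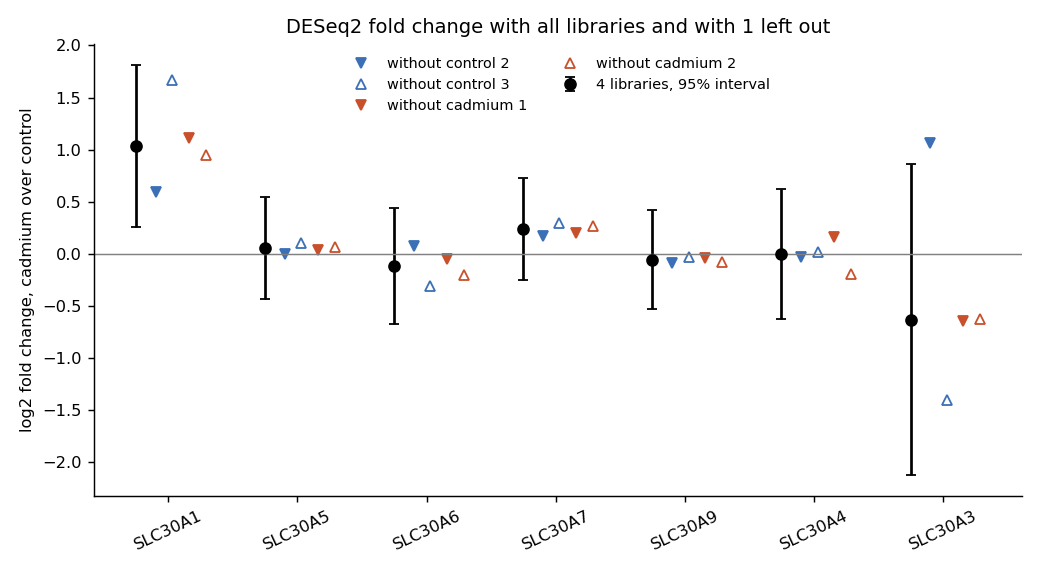
DESeq2 log2 fold change of cadmium over control for each SLC30 gene (vertical axis). Black points with bars show the fit to all 4 libraries with its 95% interval, and triangles show fits with 1 library left out. The interval excludes 0 for SLC30A1 alone, and SLC30A3 moves from 1.07 without control 2 to -1.40 without control 3.

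Counted over the family, 0 of the 7 genes were called by DESeq2 at an adjusted p-value below 0.1, against 1.14% of all tested genes. At an unadjusted DESeq2 p-value below 0.05 there was 1, SLC30A1, against 6.92% of all tested genes (3.04% higher and 3.88% lower). The edgeR quasi-likelihood test and limma-voom called 0 of the 7 and 0 of all genes. SLC30A1 was the 1 member with an unadjusted p-value below 0.05 in both, against 7.39% of genes with edgeR and 7.4% with limma-voom, and its adjusted p-values were 0.674 with edgeR and 0.669 with limma-voom. The cadmium libraries lay outside the control range for SLC30A1, SLC30A7 and SLC30A9, that is for 3 of 7 genes, and this was true of 40.3% of all tested genes. They were above it for the first 2, against 20.3% of tested genes, and below it for SLC30A9, against 19.9%. The median log2 fold change of the 7 was -0.0012, and over the 18871 tested genes averaging 10 or more normalized counts, as all 7 did, it was -0.03. The controls differed more than 2-fold for SLC30A1 and SLC30A3. For the median member they differed by 0.14 on the log2 scale and the cadmium libraries by 0.06, and these medians were 0.39 and 0.11 over the 12924 tested genes with a mean of at least 100.

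Levels were compared between the genes on the TPM scale, which takes exon length into account. SLC30A9 had 49.4 to 56.1 TPM over the 4 libraries, SLC30A5 35.6 to 42.3, SLC30A6 25.02 to 29.99, SLC30A7 21.6 to 29.6, SLC30A4 3.94 to 4.86 and SLC30A3 0.519 to 2.64. In this order SLC30A6 and SLC30A7 overlapped and could not be ranked, and the other neighbours were separated. SLC30A1 ranged from 26.7 TPM in control 2 through 61.3 in control 3 to 87.6 and 94.6 in cadmium 1 and cadmium 2. It was thus the fourth of the 7 genes in control 2 and the first in each of the other 3 libraries, and its range overlapped those of SLC30A9, SLC30A5, SLC30A6 and SLC30A7. The surface exporter, the mitochondrial exporter and the secretory pathway exporters were all transcribed at more than 20 TPM in every library, while the vesicle exporters stayed below 5.

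**Figure D3:**
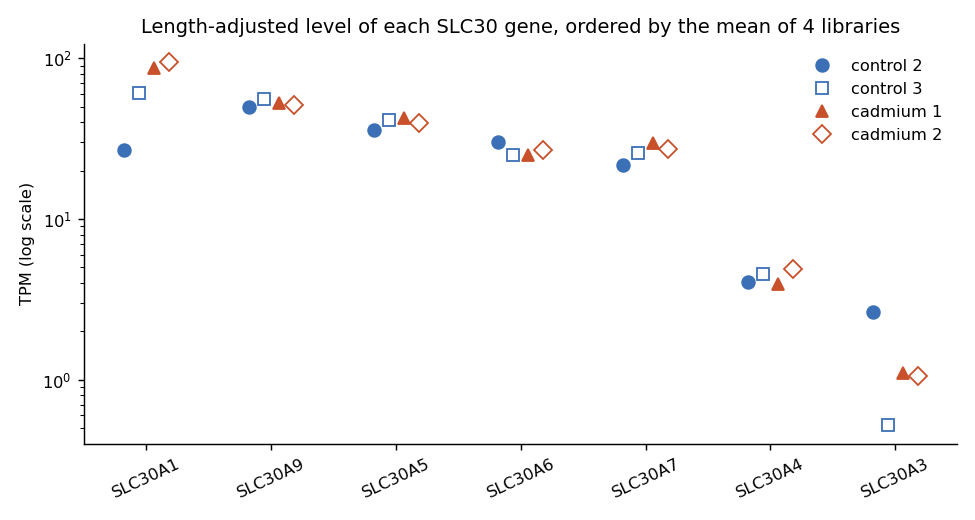
Level of each SLC30 gene in TPM (vertical axis, log scale), ordered by the mean of the 4 libraries, with one symbol per library. SLC30A1 spans 26.7 to 94.6 TPM and crosses 4 other genes, while SLC30A4 and SLC30A3 stay below 5 TPM in every library.

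Summed over the 7 genes, the SLC30 level was 170.1 TPM (control 2), 214.7 TPM (control 3), 242.03 TPM (cadmium 1) and 246.1 TPM (cadmium 2). Without SLC30A1 the sum was 143.4, 153.4, 154.5 and 151.5 TPM in the same order, so most of the spread between libraries came from that gene. The share of the sum that SLC30A1 held was 15.7% (control 2), 28.5% (control 3), 36.2% (cadmium 1) and 38.5% (cadmium 2). Its ratio to the sum of the other 6 genes was 0.293 ± 0.151 (SD, n = 2) for the controls and 0.596 ± 0.0409 (SD, n = 2) for the cadmium libraries. This ratio does not depend on library scaling, and its groups did not overlap. An exact two-sided permutation test of it gave p = 0.333, the smallest value that 2 against 2 libraries allow. The ratio of SLC30A5 to SLC30A6, the 2 partners, was 1.19 (control 2), 1.66 (control 3), 1.68 (cadmium 1) and 1.47 (cadmium 2), with control 2 the lowest and the groups overlapping.

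To see whether a difference was shared along the chromosome, each SLC30 gene was set against the 20 nearest expressed genes on either side. Around SLC30A1 the median of these 40 was a log2 fold change of -0.05, and each of them was lower than its 1.04. The log2 ratio of control 3 over control 2 was 1.09 for SLC30A1 and 0.07 at the median of its neighbours. At the median, the genes around SLC30A1 thus shared neither its difference between the groups nor its difference between the controls. SLC30A7, on the other arm of chromosome 1, had 0.24 against a neighbour median of -0.0030, and 82.5% of its neighbours were lower.

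The genes on the short arm of chromosome 2 lay in a region that differed between the libraries. For SLC30A3 the log2 fold change of -0.63 stood beside a neighbour median of -0.45. Its log2 ratio of control 3 over control 2, at -2.43, stood beside a neighbour median of -0.77. For SLC30A6 the fold change was -0.12 against -0.24, and the control ratio was -0.37 against -0.53. Both genes were thus lower in control 3 than in control 2 as the median of their surroundings was, and the part of the region in these values was not tested. The neighbour sets of these 2 genes overlap in part. SLC30A5, SLC30A9 and SLC30A4 differed from their neighbour medians by 0.05, -0.03 and -0.13, and with 10 neighbours on each side the value of SLC30A4 turned to 0.020.

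**Figure D4:**
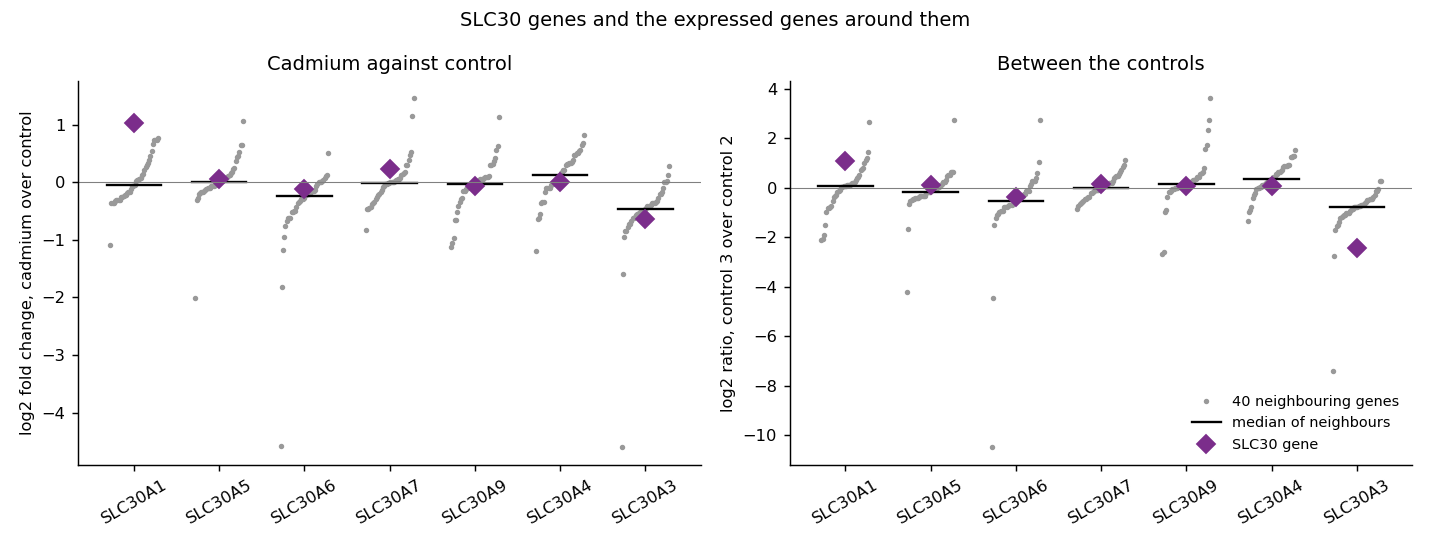
Log2 fold change of cadmium over control (left) and log2 ratio of control 3 over control 2 (right) for each SLC30 gene (diamond) and the 40 nearest genes averaging at least 100 normalized counts (points, sorted by value), with their median as a line. SLC30A1 lies above all its neighbours at left, and the neighbours of SLC30A3 and SLC30A6 are centred below 0 in both panels.

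The 3 genes whose profile over the 4 libraries was most like that of SLC30A1 were TENM3-AS1, SESN3 and RGCC. They had the smallest Euclidean distance in centred log2 normalized counts, at 0.0890, 0.101 and 0.104, among 12885 genes with a mean of at least 100. RGCC, for example, had normalized counts of 182.6 and 353.01 for the controls and 521.5 and 574.6 for the cadmium libraries (log2 fold change 1.03, DESeq2 adjusted p = 0.391). SESN3, which encodes a stress-responsive sestrin, had 255.5 and 552.9 against 717.6 and 842.2 (log2 fold change 0.95, DESeq2 adjusted p = 0.572). The likeness covers 4 libraries only.

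Other exporters of zinc were examined beside the family. SLC30A10, which exports manganese and lies on the same chromosome arm as SLC30A1, had normalized counts of 18.9 (control 2), 96.8 (control 3), 164.2 (cadmium 1) and 150.1 (cadmium 2). It was low throughout, and both cadmium libraries were above both controls. The log2 difference was 1.45 ± 0.73 (SE, DESeq2 adjusted p = 0.712), and its controls were 5.11-fold apart. Without control 3 the log2 difference was 3.04, and without control 2 it was 0.70. TMEM163, a zinc efflux protein, had 2100 and 2861 in the controls and 1556 and 1413 in the cadmium libraries. Both cadmium values were below both controls (log2 difference -0.74 ± 0.29 SE, DESeq2 adjusted p = 0.379). It was -0.95 without control 2 and -0.51 without control 3. SLC30A2 and SLC30A8 had at most 2 reads in a library, which is below the floor of 3 counts, so no difference was detectable at this depth. Of the 4 genes only SLC30A10 and TMEM163 were tested. With all libraries 0 of these 2 were called, against 1.14% of all tested genes.

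The ZIP family, encoded by SLC39 genes, carries zinc into the cytosol and so opposes the SLC30 exporters. Of 14 ZIP genes 12 averaged at least 10 normalized counts, and 0 were called, against 1.14% of all tested genes. Of these 12, 5 were higher and 7 lower, and their median log2 fold change was -0.15. Over all tested genes averaging at least 10, 8862 were higher and 10009 lower, with a median of -0.03. Among the ZIP genes SLC39A11 had the lowest unadjusted p-value. Its normalized count was 867.3 ± 8.56 for the controls against 597.7 ± 13.4 for the cadmium libraries (SD, n = 2 each). The log2 difference was -0.54 (DESeq2 adjusted p = 0.718). SLC39A4, the intestinal zinc importer, was at -0.60 (DESeq2 adjusted p = 0.793). SLC39A14, an importer of zinc, iron and manganese that also carries cadmium, was at -0.41 (DESeq2 adjusted p = 0.846), and SLC39A6 at -0.36 (DESeq2 adjusted p = 1.00). SLC39A6 had normalized counts of 4978 (control 2), 3185 (control 3), 3176 (cadmium 1) and 3177 (cadmium 2), so its difference rested on control 2. With control 3 left out 5 of the 12 genes were called as lower and 1 as higher, and with control 2 left out 2 and 0, where 31.2% and 14.8% of all tested genes were called in either direction. Both cadmium libraries lay below both controls for 4 of the 12 genes, against 19.9% of all tested genes, and above both for 2, against 20.3%. SLC39A6 is among these 4, although its cadmium values almost equalled control 3. The summed level of the ZIP genes was 853.4 and 946.98 TPM in the controls and 883.6 and 898.4 in the cadmium libraries. It was 5.02 and 4.41 times the SLC30 sum in the controls and 3.65 times in each cadmium library. The ZIP sums of the cadmium libraries lay between those of the controls, and SLC39A7 was the largest part of the ZIP sum in every library. Most of the spread of the SLC30 sum came from SLC30A1, which was not called. The lower ratio therefore does not show a shift shared by the members of either family.

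Among the metallothioneins, which bind cadmium and zinc and are targets of MTF-1 as SLC30A1 is, 5 genes passed the DESeq2 test that SLC30A1 did not pass. Whether their changes differed from that of SLC30A1 was not tested. Of the 12 genes in the list of MTF1 and metallothioneins, 7 averaged at least 10 normalized counts. DESeq2 called 5 of these and all 5 were higher, against 0.601% of all tested genes called as higher. The other 2, MT1A and MTF1, had log2 fold changes of -0.07 and -0.28 and were not called. The list was chosen with the DESeq2 calls known, and edgeR and limma-voom called 0 genes of the list. MT1X, MT1M, MT1F and MT2A had log2 fold changes of 2.87, 5.81, 2.07 and 2.06, with DESeq2 adjusted p-values of 3.48e-13, 6.56e-11, 2.80e-06 and 9.41e-06. MT1M had 6 and 1 reads in the controls, so its fold rests on few reads. With either cadmium library left out fewer genes of the list were called, and far fewer of the whole table were. The median log2 fold change of the 7 genes averaging at least 10 was 2.16 without cadmium 1 and 2.06 without cadmium 2. MT1X was called in every fit with a library left out. The summed metallothionein level, of which MT2A made up most, was 3711 TPM in control 2 and 2082 in control 3, the reverse of the order of SLC30A1 (26.7 and 61.3). The called genes MT1E, MT1M, MT1X and MT2A were likewise higher in control 2, whereas MT1F was lower there (6.37 and 10.5 TPM), as SLC30A1 was. In cadmium 1 and cadmium 2 the metallothionein sum was 11879 and 13541 TPM.

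Surface and secreted enzymes that take up zinc in the secretory pathway, where SLC30A5, SLC30A6 and SLC30A7 act, were also counted. Of 9 genes 6 averaged at least 10 normalized counts, 1 was called as higher and 1 as lower, against 0.601% and 0.535% of all tested genes. The list was chosen with earlier results of these data known, so these counts are a description only. ENPP1, a nucleotide pyrophosphatase, had normalized counts of 8176 and 6694 in the controls and 28958 and 20883 in the cadmium libraries. It rose 3.35-fold (log2 difference 1.74 ± 0.30 SE, DESeq2 adjusted p = 5.44e-06). CA12, a carbonic anhydrase, had 4566 and 2413 in the controls and fell to 1271 and 974.5 in the cadmium libraries. The log2 difference was -1.64 ± 0.39 (SE, DESeq2 adjusted p = 0.00526). Neither gene was called by edgeR. With either cadmium library left out ENPP1 and CA12 kept their signs, but neither was called by DESeq2. Few genes of the whole table were called in those fits, which take their error from the controls alone. ENPP3 and NT5E had log2 fold changes of 2.37 and 0.30 with DESeq2 adjusted p-values of 0.724 and 1.00. ENPP3 had 4 and 7 reads in the controls, 49 in cadmium 1 and 9 in cadmium 2, and its log2 fold change was 0.66 without cadmium 1. NT5E was at -0.014 without control 2 and at 0.68 without control 3. ALPP and CA9, also among the 6 genes, had log2 fold changes of -0.02 and -0.18 and were not called. ALPP, an alkaline phosphatase, had normalized counts of 221.4 and 1355 in the controls and 596.1 and 953.7 in the cadmium libraries. The exporters of the route had log2 fold changes between -0.12 and 0.24, and 0 of the 3 were called.

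**Figure D5:**
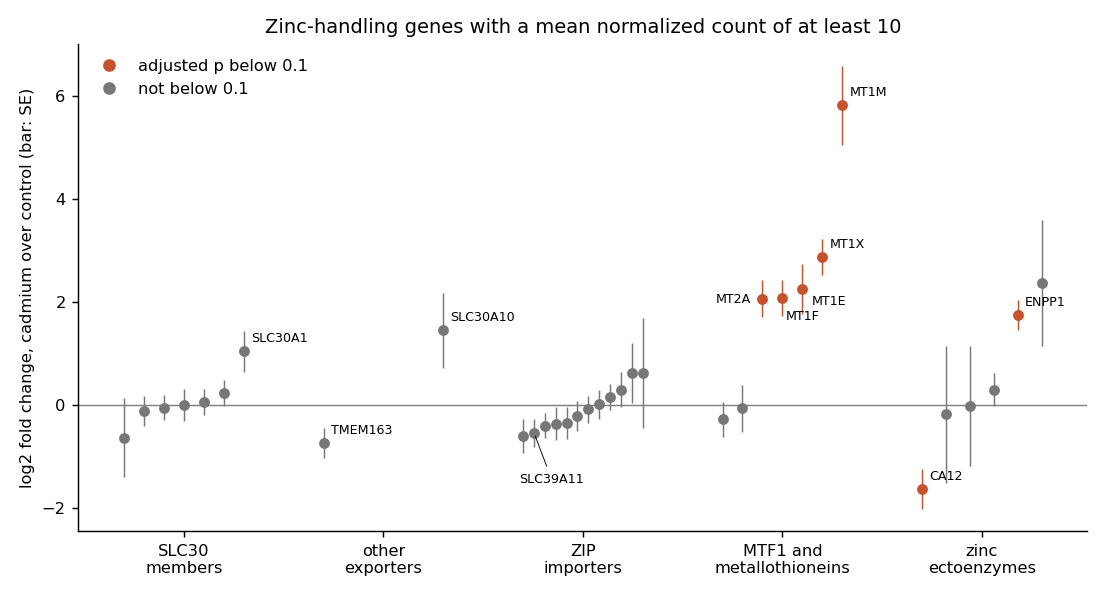
DESeq2 log2 fold change of cadmium over control with its standard error (vertical axis) for genes averaging at least 10 normalized counts in each zinc-handling list, with called genes in orange. Among SLC30 members and ZIP importers 0 genes are called, while 5 metallothioneins and ENPP1 are higher and CA12 is lower.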

How the data were processed

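Total RNA of 2 control and 2 cadmium-resistant cultures of MDA-MB-231 was sequenced as read pairs. The authors removed adaptors (bbduk), mapped the reads to hg38 (hisat2) and counted them per Ensembl gene with featureCounts 2.0.1. The deposited values are raw counts per gene, without normalization. Only the annotation and output were set, so strand was ignored, reads overlapping several genes or mapping to several places were dropped, and each mate was counted. Of low counts, 70.6% to 71.5% were even, so a count overstates fragments. The header names the control files A and B while their columns are numbered 2 and 3, and the labels number them 1 and 2. Both were used as controls with no replicate number. Symbols matched 61369 of 61541 identifiers. Gene coordinates are those of the count table, and for all 7 SLC30 genes they equalled those of GENCODE.

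The groups were compared with DESeq2 1.42.0 under R 4.3.3 (group as the only term, median-of-ratios factors, two-sided Wald test, Benjamini-Hochberg adjustment after independent filtering at a mean count of 7.69, threshold 0.1 on the adjusted p-value), the tool of the study. Alternatives were edgeR 4.0.16 and limma 3.58.1 and those named in the closing section. The fit was also run on simulated data, where DESeq2 called unchanged genes as well as changed ones and missed some changed ones. Members and lists were chosen with earlier results of these data known. In the other lists the 4 genes with the lowest p-value were named. SLC30A1 was compared by profile with all genes of a mean count of at least 100. Levels in TPM used the length column of the table. A planned description of the member proteins was not run here. Intervals cover the fitted error, and floors cover counting error only. In bulk RNA a change in cell composition and a change per cell cannot be told apart.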

Additional observations from a re-analysis of the deposited data

How the results depend on the processing

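No paired analysis was possible because controls numbered 2 and 3 in the table share too few numbers with the cadmium libraries for a replicate block. DESeq2 called 119 genes as higher and 106 as lower over the whole table, and edgeR and limma-voom called 0 and 0, with 1422 and 1423 genes at an unadjusted p-value below 0.05. Upper-quartile factors changed the split to 152 and 88. Both edgeR and limma-voom also called 0 metallothioneins and 0 ectoenzymes. SLC30A4 had a log2 fold change of 0.00095 with edgeR, 0.058 with upper-quartile factors and 0.0045 with a minimum of 10 counts in 2 libraries, and SLC30A9 one of 0.0048 with upper-quartile factors, where the main values were just below 0. The ZIP median was -0.088 with upper-quartile factors. Without length adjustment SLC30A7, SLC30A5 and SLC30A6 ranked 3, 4 and 5.

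With 1 library left out, where the lone library is assumed to vary like the other group, calls ranged from 9 to 2678 higher and from 5 to 3511 lower, the largest without control 3. SLC30 calls ranged from 0 to 1 in each direction. ZIP calls ranged from 0 to 1 higher and 0 to 5 lower with medians from -0.20 to -0.048, and other exporters from 0 to 1 in each direction. Calls in the list of MTF1 and metallothioneins ranged from 1 to 6 higher and 0 to 1 lower with medians from 1.68 to 2.55, and ectoenzyme calls from 0 to 3 higher and 0 to 2 lower. Log2 fold changes ranged from 0.59 to 1.67 for SLC30A1, -1.40 to 1.07 for SLC30A3, -0.19 to 0.16 for SLC30A4, -0.00012 to 0.10 for SLC30A5 and -0.30 to 0.076 for SLC30A6. The ranks of SLC30A6 and SLC30A7 each ranged from 4 to 5. The cause of these changes was not tested.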
